A study of Mus musculus with 8 samples.

Results

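Chemokines are small secreted proteins that direct the movement of leukocytes, and chemokine receptors are the surface receptors through which cells sense them. Messenger RNA of both families was measured in mouse kidney. Members were all mouse genes on the array whose symbol begins with Ccl, Cxcl, Ccr or Cxcr followed by a digit, together with Cx3cl1, Cx3cr1 and Xcl1, with the symbol read from the RefSeq accession of each probe. The rule found 52 members among the 32301 distinct gene symbols or accessions on the array: 20 CC ligands, 12 CXC ligands, Cx3cl1, Xcl1, 11 CC receptors, 6 CXC receptors and Cx3cr1. The brightest probe of each gene was used. The study compared male mice at 16 weeks of age in 4 groups of 2 arrays. Left kidneys without injury came from wild-type mice (WT normal) or Keap1 knockdown mice (KD normal). WT IRI and KD IRI were left kidneys that had gone through ischemia-reperfusion injury (IRI). For this, vein and artery of that kidney were closed for 45 min with the right side not clamped, and tissue was taken on day 1. The labels do not give the allele or promoter behind the knockdown, and they name no sham operation for the normal kidneys.

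Chemokines are grouped by the spacing of their first cysteines into CC, CXC, CX3C and XC ligands, and they signal through G protein-coupled receptors that belong mostly to the same group. CXC ligands that carry a Glu-Leu-Arg motif attract neutrophils through Cxcr2, several CC ligands attract monocytes through Ccr2, and homeostatic ligands such as Cxcl12 and Ccl19 position cells in resting tissue. After ischemia the kidney is known to take in neutrophils first and monocytes next. Keap1 holds the transcription factor NRF2 in check, so loss of Keap1 raises NRF2 target genes.

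Values are log2 signal relative to the 75th percentile of the array, here called the level. Levels of different probes cannot be compared with each other, so genes are compared 1 at a time between groups. The exceptions are medians of changes over genes and summed levels of marker lists, each compared between groups. In such a sum the brightest probes weigh most, and signals below background are included. A member was called higher or lower where limma's adjusted p was under 0.05 over the 20577 genes tested on all 8 arrays, and n was 2 arrays per group throughout. Between 62.1% and 67.8% of spots on an array were well above background, and none was saturated. Keap1 itself had levels of 2.79 and 2.72 on the WT arrays without injury, 1.53 and 1.44 on the KD ones, 2.71 and 2.56 on the WT IRI arrays and 1.38 and 1.09 on the KD IRI arrays, so both KD groups lay below both WT groups. Replicate 1 of every group lay on 1 slide and replicate 2 on the other. The labels do not state that arrays are separate animals, so the p-values reflect spread among these 8 samples, which may be technical. In whole kidney, fewer cells of a type and less RNA per cell cannot be told apart.

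Of the 52 members, 40 passed the filter, which asked for a signal well above background on both arrays of some group, and were tested. Of these, 23 were above background on all 8 arrays. No array did so for Ccl1, Ccl22, Ccr1, Ccr10, Ccr1l1, Ccr4, Ccr8, Cxcr1, Cxcr5 and Xcl1. Ccr3 was above background on WT IRI array 1 and Cxcl15 on KD IRI array 2, and neither was tested. Neither array of the group measured 24 members above background in normal WT kidney and 22 in normal KD kidney, which became 11 and 12 after IRI. Injured arrays reached lower: their lowest level called above background lay between -6.00 and -5.76, against -5.56 to -5.03 without injury. They also had more of all spots above background (65.7% to 67.8%, against 62.1% to 64.5%). Cxcl5 counted as measured in WT IRI at -5.42 and -5.18, under that limit on either WT normal array. How far this lowered the counts after IRI was not tested. The members below background in both normal groups but on both arrays of both injured groups were Ccl20, Ccl24, Ccl3, Ccl7, Ccr7, Cxcl17, Cxcl2 and Cxcl5. In WT normal, Ccl11, Cxcl13, Cxcl3 and Cxcr2 were also below background on both arrays. In KD normal the same was so of Cxcl13 and Cxcl3, and in KD IRI it was so of Ccl28. A member below background in a group has only an upper bound there, so its change is given as a lower bound on the fold. For this, a dim array was given no less than its lowest signal called above background (between -6.00 and -5.03 as a level). The adjusted p beside such a bound is limma's, for the fitted change in the signals as they were. That p does not test the bound.

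**Figure D1:**
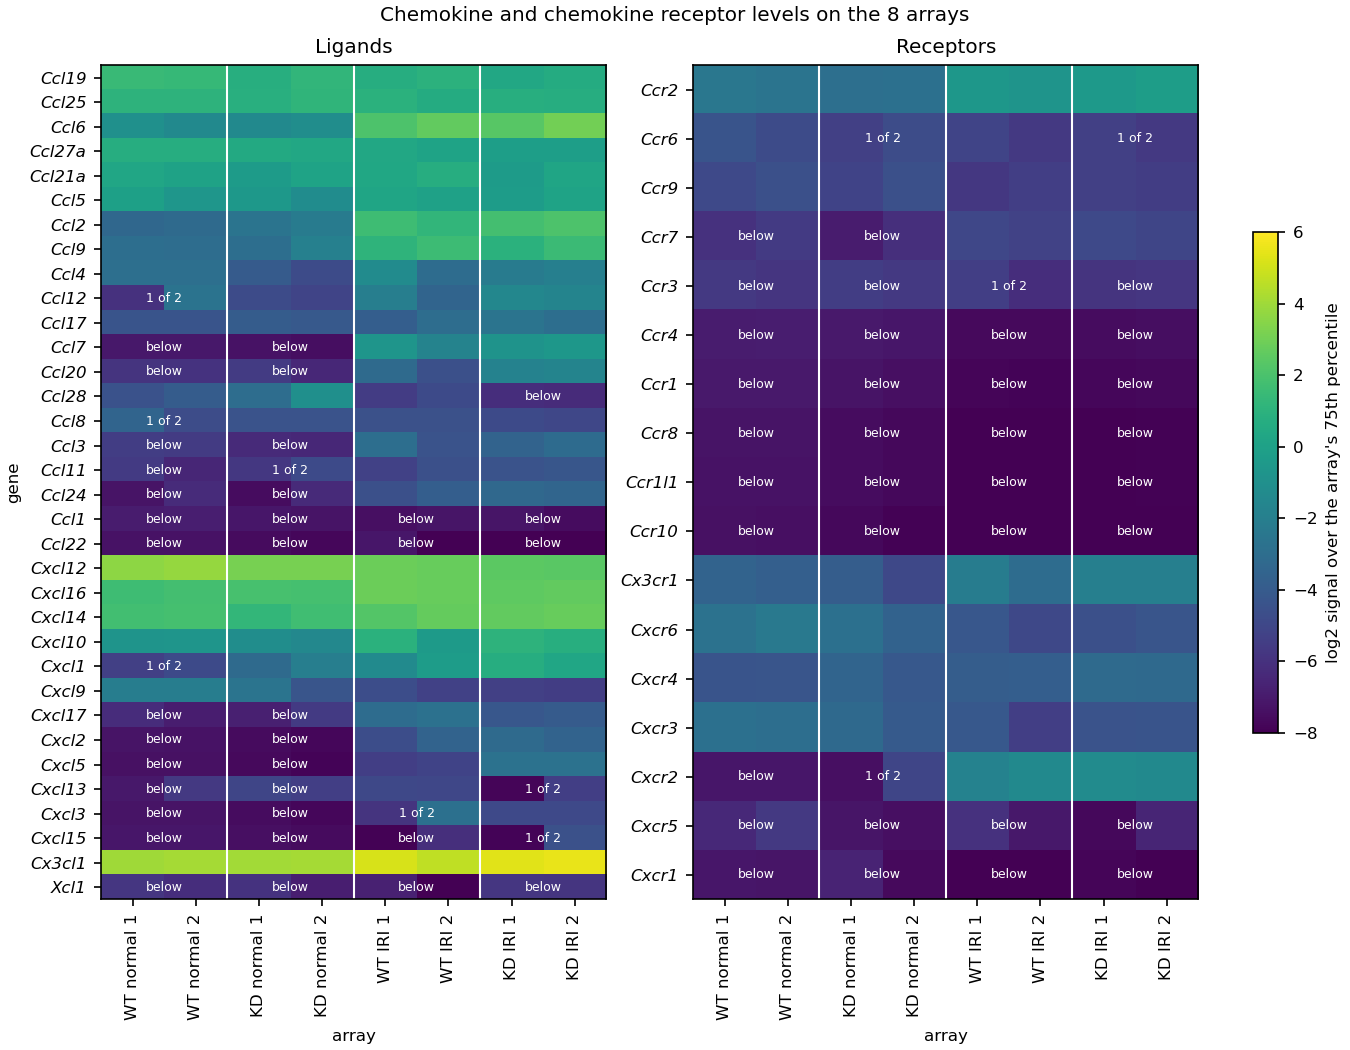
Levels (log2 signal, 75th percentile of each array at 0, colour) of the members on the 8 arrays, ligands at left and receptors at right, grouped by class. Cells marked below were not well above background on either array of the group and cells marked 1 of 2 on 1 array only; 24 members carry the mark below in WT normal and 11 in WT IRI. Colours of different genes cannot be compared, and their order within a class is for display.

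Injury was followed by higher RNA of the neutrophil ligands Cxcl1, Cxcl2, Cxcl3 and Cxcl5, of the monocyte ligands Ccl2 and Ccl7 and of the receptors Cxcr2 and Ccr2, and by lower RNA of Cxcl12, Cxcl9, Ccl19, Ccl27a and Cxcr6. In WT kidneys 19 of the 40 tested members rose, 6 fell and 15 were not called, where 46.1% of all tested genes were called, 20.6% higher and 25.5% lower. In KD kidneys 26 rose, 6 fell and 8 were not called, where 59.1% of all genes were called, 28.1% higher and 31.0% lower. The median change of the members was 1.02 in WT and 1.45 in KD on the log2 scale, against -0.08 and -0.06 for all genes. Members that are high after injury could pass the filter through that group. Among the 23 members above background on all 8 arrays, 9 rose and 7 fell in WT and 14 rose and 5 fell in KD. Their medians were 0.66 and 0.82. Under that filter 8627 of 17682 genes were called in WT, 41.66% of them higher. In KD 10814 were called, 45.35% of them higher. The medians of all genes under it were -0.10 and -0.08. With normexp correction the medians of the 40 tested members were 1.09 and 0.12, against 0.20 and -0.32 for all genes. They were 0.52 and 0.72 with non-uniform spots left out as well. Within slides the members' median was 1.24 and 0.70 in WT and 1.58 and 1.40 in KD. All 19 members that rose in WT also rose in KD, and 5 fell in both. By ligand class, 8 of 18 CC ligands and 7 of 11 CXC ligands rose in WT, and 11 of 18 and 8 of 11 rose in KD. Under every processing alternative run, 11 calls held in WT, among them Ccl2, Ccl6, Ccl7, Ccl9, Ccr2, Cx3cl1, Cxcl1, Cxcl12, Cxcl16 and Cxcr2. The 15 that held in KD were the same 11 and Ccl27a, Ccl28, Cxcl10 and Cxcl14. Normexp background correction ended 11 of the 25 calls in WT and 14 of the 32 in KD. In both genotypes these were Ccl17, Ccl20, Ccl24, Ccl3, Cxcl17, Cxcl2, Cxcl3, Cxcl5, Cxcl9 and Cxcr6, with Cxcr3 in WT and Ccl4, Ccr7, Cx3cr1 and Cxcr4 in KD. In KD it turned the direction of Ccr7 (-0.63), Cxcl17 (-0.52), Cxcl3 (-0.42) and Cxcr4 (-0.28). With non-uniform spots left out as well, it ended 4 calls in WT (Ccl17, Ccl20, Ccl3 and Cxcl3) and 3 in KD (Ccr7, Cxcl3 and Cxcr4). In KD, Ccl19 was also lost with quantile normalization, the deposited table, no filter on dim probes, no intensity trend and only the arrays compared. Ccl5 was lost there with the deposited table, no filter and no trend, and Cxcr4 with quantile normalization, no filter and only the arrays compared. In WT, Ccl17 and Cxcl3 were lost with only the arrays compared.

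**Figure D2:**
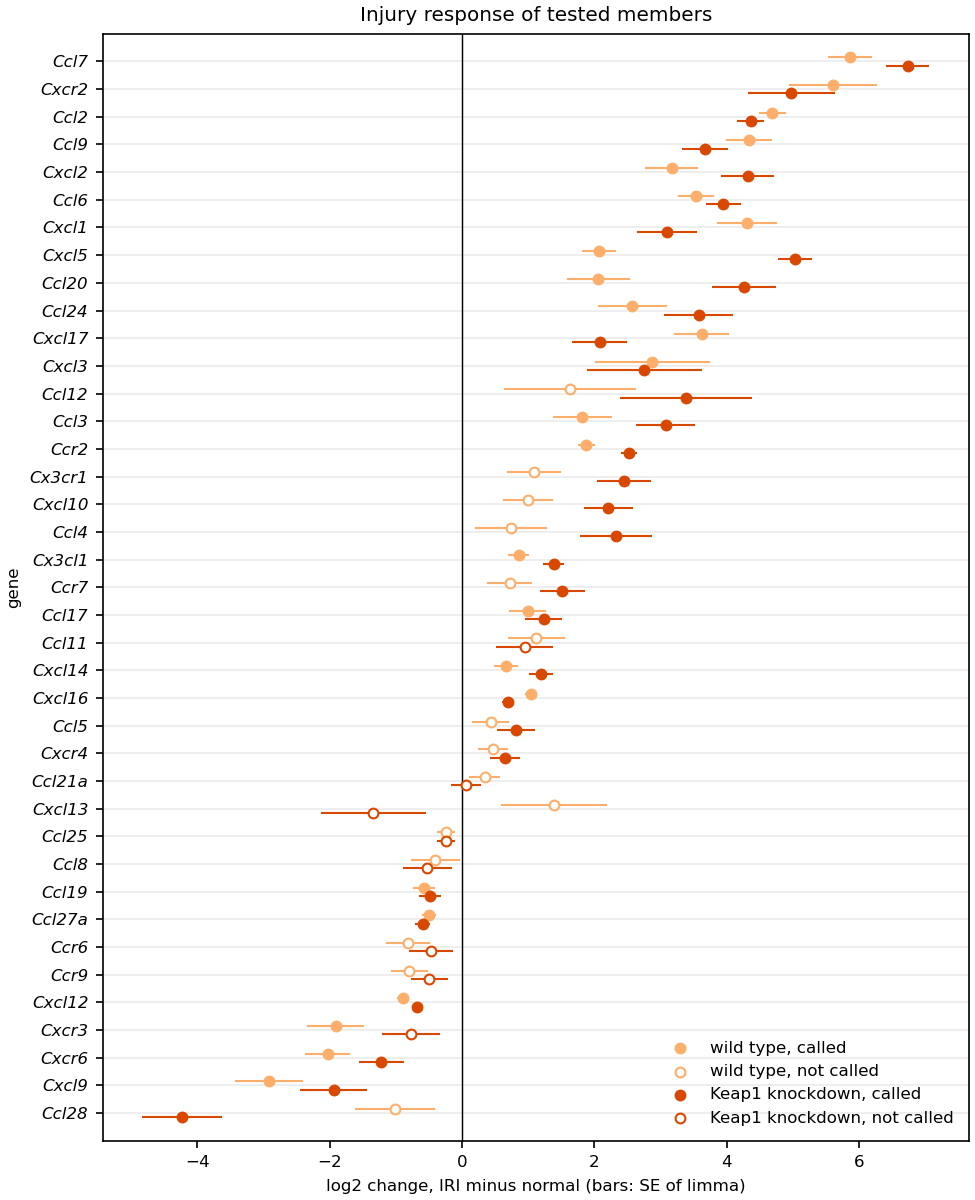
Log2 change from normal to IRI (x axis) of tested members (y axis) in wild type and Keap1 knockdown, with limma's SE as bars; filled points were called at an adjusted p under 0.05. Points of members below background in normal kidney, such as Ccl7, show fitted values whose true size is only bounded.

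The Glu-Leu-Arg CXC ligands, which attract neutrophils, and their receptor rose together. Cxcl1 had levels of -5.33 and -4.83 on the WT normal arrays, -3.15 and -2.04 on the KD normal arrays, -1.29 and -0.27 on the WT IRI arrays and 0.71 and 0.29 on the KD IRI arrays. The 4 groups did not overlap, and only WT normal array 1 was below background. The change was 4.31 ± 0.45 (SE) in WT, 19.8-fold with an adjusted p of 0.000513, and 3.09 ± 0.45 in KD, 8.53-fold with an adjusted p of 0.00104. Cxcl2 lay at -7.28 and -7.30 in normal WT kidney and -7.57 and -7.76 in normal KD kidney, all below background, and at -4.69 and -3.56 after IRI in WT and -3.13 and -3.56 after IRI in KD. It was at least 1.89-fold higher after injury in WT (adjusted p = 0.00101) and at least 4.33-fold in KD (adjusted p = 0.000140). Cxcl5, a ligand of the same receptor that epithelial cells can make, was below background in WT normal at -7.35 and -7.38 and in KD normal at -7.67 and -7.86. It reached -5.42 and -5.18 after IRI in WT and -2.74 and -2.71 after IRI in KD. In KD this was at least 6.66-fold (adjusted p = 2.17e-05). In WT the call was higher (adjusted p = 0.000933), but the injured level lay below the lowest signal called above background on the normal arrays, so no fold is given.

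Cxcl3 was the least even of these ligands. Its levels were -7.24 and -7.26 in normal WT kidney and -7.54 and -7.75 in normal KD kidney, all below background, against -5.92 (below background) and -2.83 after IRI in WT and -4.89 and -4.89 after IRI in KD. It was called higher in WT (adjusted p = 0.0325), where 1 of the 2 injured arrays measured it and no fold is given, and was at least 1.48-fold higher in KD (adjusted p = 0.0301). The WT call was lost without WT normal array 1 or 2 or KD IRI array 1 or 2, with changes of 2.86 to 2.89 and adjusted p between 0.0564 and 0.110. Without WT IRI array 1 or 2 the change was 4.42 or 1.33. The KD call was lost without any 1 of the 4 KD arrays, with changes of 2.65 to 2.86 and adjusted p between 0.0835 and 0.105. Cxcr2, the receptor that neutrophils carry for these ligands, was below background at -7.16 and -7.17 in normal WT kidney and at -7.44 on KD normal array 1, but was measured at -5.08 on KD normal array 2. It lay at -1.78 and -1.35 after IRI in WT and -1.23 and -1.33 after IRI in KD. It was at least 11.2-fold higher in WT (adjusted p = 0.000794), and the change in KD was 4.98 ± 0.66 (adjusted p = 0.000690). Without KD normal array 1 the KD change was 3.80 and without array 2 it was 6.15. Cxcr1, the other receptor of this group, was below background on all 8 arrays.

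RefSeq promoter windows (build GRCm38.p6) matched 39 of the 52 members. The 13 without an entry included Ccl11, Ccl2, Ccl24, Ccl4, Ccl5, Ccl7, Ccr10, Ccr7, Cxcl16, Cxcl17, Cxcl5 and Cxcr5. The 250 bases before each start were searched on both strands for 4 motifs. The NF-kB consensus, bound by the factors that induce many chemokines, was found in 5 of the 12 windows of members that rose in both genotypes, in Ccl20, Ccl9, Cxcl1, Cxcl2 and Cxcl3. It was in 8 of the 39 member windows and in 3.90% of all 32851 windows, and the other 3 members with it were Ccr3, Ccr6 and Cxcl10. Ccl20, Cxcl2 and Cxcl3 were below background on every normal array and passed the filter only through injured groups. The set of members that rose was thus partly set by the filter. Cxcl1, Cxcl2 and Cxcl3 also lie together on chromosome 5 and share the same stretch, so their matches need not be independent. The AP-1 motif TGANTCA was in 5 of 39 member windows and 6.75% of all. The interferon-stimulated response element (GAAA, any 2 bases, GAAA) was in 3 of 39 and 2.98% of all. The antioxidant element core TGACNNNGC, which NRF2 can bind, was in 4 of 39 and 10.2% of all, and in 0 of the 12. In Cxcl10 that match overlapped the AP-1 match. A match is a description of letters and not a measured site. The 170 bases before the start are shown for the neutrophil ligands Cxcl1 (chr5:90891075-90891244, plus strand), Cxcl2 (chr5:90903729-90903898, plus strand) and Cxcl3 (chr5:90785931-90786100, plus strand), which rose in both genotypes and carry an 11-base stretch of the consensus. They are also shown for Ccl20 (chr1:83116596-83116765, plus strand), which differed between genotypes after injury, and for Cxcl10 (chr5:92348890-92349059, minus strand), which has 2 stretches. Capitals mark the NF-kB consensus.
Cxcl1: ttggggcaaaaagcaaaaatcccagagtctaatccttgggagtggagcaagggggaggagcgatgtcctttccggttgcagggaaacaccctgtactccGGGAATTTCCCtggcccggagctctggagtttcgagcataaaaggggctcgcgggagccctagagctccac
Cxcl2: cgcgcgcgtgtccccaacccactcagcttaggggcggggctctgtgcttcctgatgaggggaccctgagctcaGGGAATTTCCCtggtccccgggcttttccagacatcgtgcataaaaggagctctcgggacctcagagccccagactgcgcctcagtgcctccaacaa
Cxcl3: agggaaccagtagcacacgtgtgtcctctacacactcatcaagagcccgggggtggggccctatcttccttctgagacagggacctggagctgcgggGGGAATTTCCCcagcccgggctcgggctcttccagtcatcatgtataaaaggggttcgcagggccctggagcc
Ccl20: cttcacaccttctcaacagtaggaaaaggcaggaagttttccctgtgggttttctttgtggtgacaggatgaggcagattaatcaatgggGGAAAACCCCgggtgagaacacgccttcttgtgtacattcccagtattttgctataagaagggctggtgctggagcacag
Cxcl10: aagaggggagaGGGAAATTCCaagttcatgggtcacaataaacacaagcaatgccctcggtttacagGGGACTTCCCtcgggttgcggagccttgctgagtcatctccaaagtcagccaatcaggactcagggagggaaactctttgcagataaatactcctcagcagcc
The capitals read the same in the 3 neutrophil ligands.

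Neighbouring members are given beside the 20.6% of all genes called higher after injury in WT and 28.1% in KD, and the 25.5% and 31.0% called lower. Cxcl1, Cxcl2, Cxcl3, Cxcl5 and Cxcl15 lie together on chromosome 5, and all 4 that were tested rose after injury in both genotypes. Cxcl2, Cxcl3 and Cxcl5, like Ccl3 and Ccl7 on chromosome 11, were below background on every normal array. They passed the filter only through injured groups, and Cxcl15 did not pass it. The counts that hold these genes were thus partly set by the filter. Of the 5 genes Ccl5, Ccl9, Ccl6, Ccl3 and Ccl4, which lie together on chromosome 11, 3 rose in WT and 5 in KD. In the other group on chromosome 11, Ccl2, Ccl7, Ccl11, Ccl12, Ccl8 and Ccl1, 2 of the 5 tested rose in WT and 3 in KD. Of Ccl27a, Ccl19 and Ccl21a, which lie together on chromosome 4, 2 fell in each genotype.

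Of the Ccr2 ligands Ccl2, Ccl7 and Ccl12, Ccl2 and Ccl7 rose in both genotypes, and Ccl12 was called higher in KD. Ccl2, the main ligand of Ccr2, had levels of -3.31 and -3.18 in normal WT kidney and -2.63 and -2.19 in normal KD kidney, then 1.68 and 1.22 after IRI in WT and 1.84 and 2.07 after IRI in KD. It rose by 4.69 ± 0.20 (25.8-fold, adjusted p = 3.62e-05) in WT and by 4.36 ± 0.20 (20.6-fold, adjusted p = 1.82e-05) in KD. Both injured groups lay far above both normal groups. Ccl7, a further Ccr2 ligand, was below background on all 4 normal arrays, at -7.11 and -7.09 in WT and -7.34 and -7.50 in KD. It reached -0.71 and -1.76 after IRI in WT and -0.81 and -0.56 after IRI in KD. It was at least 14.0-fold higher in WT (adjusted p = 8.34e-05) and at least 27.4-fold in KD (adjusted p = 2.08e-05). Ccl12, another ligand of that receptor, had levels of -6.03 (below background) and -2.68 in normal WT kidney and -4.79 and -5.15 in normal KD kidney, then -1.99 and -3.46 after IRI in WT and -1.51 and -1.67 after IRI in KD. The WT arrays overlapped, and the change of 1.63 ± 1.00 was not called (adjusted p = 0.222). In KD it rose by 3.38 ± 1.00 (adjusted p = 0.0232), a call that was lost without any 1 of the 4 KD arrays (3.20 to 3.56, adjusted p 0.0678 to 0.0891). Ccl8 had changes of -0.40 in WT and -0.52 in KD, neither called. Ccr2 itself, carried by inflammatory monocytes, stood at -2.47 and -2.63 in normal WT kidney and -2.87 and -2.83 in normal KD kidney, then -0.60 and -0.75 after IRI in WT and -0.44 and -0.21 after IRI in KD. It rose 3.67-fold in WT (1.88 ± 0.13, adjusted p = 0.000126) and 5.74-fold in KD (2.52 ± 0.13, adjusted p = 2.11e-05).

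Ccl6, Ccl9 and Ccl3, ligands of Ccr1, rose as well. Ccl6 had levels of -0.99 and -1.34 in normal WT kidney and -1.38 and -1.11 in normal KD kidney, then 2.11 and 2.63 after IRI in WT and 2.37 and 3.04 after IRI in KD. This was an 11.6-fold rise in WT (3.54 ± 0.27, adjusted p = 0.000171) and a 15.4-fold rise in KD (3.95 ± 0.27, adjusted p = 4.67e-05). Ccl9 lay at -2.96 and -3.02 in normal WT kidney and -2.95 and -1.92 in normal KD kidney, then 1.11 and 1.57 after IRI in WT and 0.97 and 1.52 after IRI in KD. It rose 20.1-fold in WT (4.33 ± 0.35, adjusted p = 0.000212) and 12.8-fold in KD (3.68 ± 0.35, adjusted p = 0.000153). Neither ligand overlapped between normal and injured arrays. Ccl3, which macrophages and neutrophils make, was below background at -5.46 and -5.58 in normal WT kidney and -6.36 and -6.44 in normal KD kidney, and was -2.97 and -4.44 after IRI in WT and -3.53 and -3.11 after IRI in KD. The rise was at least 2.53-fold in WT (adjusted p = 0.0154) and at least 4.40-fold in KD (adjusted p = 0.00106). The WT call was lost without WT normal array 1 or 2 (1.76 to 1.88, adjusted p 0.0614 to 0.0715), and without WT IRI array 1 or 2 the change was 1.08 or 2.55. Ccl4 had levels of -2.88 and -2.90 in normal WT kidney and -4.00 and -4.79 in normal KD kidney, then -1.25 and -3.05 after IRI in WT and -2.15 and -1.97 after IRI in KD. Its change in WT was 0.74 ± 0.54 (adjusted p = 0.303), with overlapping arrays. In KD it rose by 2.33 ± 0.54 (adjusted p = 0.00880), or 1.93 with an adjusted p of 0.0520 without KD normal array 2.

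Ccl5, which T cells, NK cells and macrophages make, had small changes. Its levels were -0.03 and -0.64 in normal WT kidney and -0.52 and -1.21 in normal KD kidney, then 0.21 and -0.01 after IRI in WT and -0.24 and 0.14 after IRI in KD. It was not called in WT (0.43 ± 0.28, adjusted p = 0.250) and rose by 0.82 ± 0.28 in KD (adjusted p = 0.0415). That call was lost without KD normal array 2, either WT IRI array or either KD IRI array (0.48 to 1.01, adjusted p 0.0527 to 0.206). Ccr1, the receptor that Ccl3, Ccl6 and Ccl9 share, was below background on all 8 arrays, so its response was not measured.

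Among ligands of lymphocytes, dendritic cells and eosinophils, Ccl20, Ccl17 and Ccl24 rose. Ccl20, the ligand of Ccr6, was below background at -5.90 and -5.93 in normal WT kidney and -5.59 and -6.43 in normal KD kidney, and stood at -3.13 and -4.58 after IRI in WT and -1.81 and -1.69 after IRI in KD. The rise was at least 2.28-fold in WT (adjusted p = 0.0120) and at least 13.1-fold in KD (adjusted p = 0.000317). The WT call was lost without WT normal array 1 or 2 (2.05 to 2.07, adjusted p 0.0552 to 0.0558), and without WT IRI array 1 or 2 the change was 1.34 or 2.78. Ccr6 was not called, with changes of -0.82 in WT and -0.47 in KD. Ccl17, a ligand of Ccr4, had levels of -4.38 and -4.38 in normal WT kidney and -3.92 and -4.06 in normal KD kidney, then -3.80 and -2.97 after IRI in WT and -2.59 and -2.92 after IRI in KD. It rose 1.99-fold in WT (0.99 ± 0.28, adjusted p = 0.0243) and 2.35-fold in KD (1.23 ± 0.28, adjusted p = 0.00757). The WT call was lost without WT normal array 1 or 2 or WT IRI array 2 (0.58 to 0.99, adjusted p 0.0861 to 0.0941), and the KD call without KD IRI array 1 (1.07, adjusted p = 0.0507). Ccl22 and Ccr4 were below background throughout.

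Ccl24, a ligand of the eosinophil receptor Ccr3, was below background at -7.28 and -6.27 in normal WT kidney and -7.55 and -6.34 in normal KD kidney. It lay at -4.60 and -3.81 after IRI in WT and -3.29 and -3.44 after IRI in KD. The rise was at least 1.79-fold in WT (adjusted p = 0.00691) and at least 4.26-fold in KD (adjusted p = 0.00104). The fitted KD change was 2.97 or 4.18 without KD normal array 1 or 2. Ccl11, the related eotaxin, was not called, with changes of 1.12 in WT and 0.94 in KD, and Ccr3 was above background on 1 array only.

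Cx3cl1 is fractalkine, a membrane-bound ligand of endothelium and epithelium that binds Cx3cr1 on monocytes and macrophages. Its levels were 4.01 and 4.10 in normal WT kidney and 4.07 and 4.09 in normal KD kidney, then 5.16 and 4.66 after IRI in WT and 5.38 and 5.54 after IRI in KD. It rose 1.81-fold in WT (0.85 ± 0.16, adjusted p = 0.00449) and 2.61-fold in KD (1.38 ± 0.16, adjusted p = 0.000320). Both injured groups lay above both normal groups. Cx3cr1 had levels of -3.52 and -3.77 in normal WT kidney and -3.85 and -4.94 in normal KD kidney, then -2.10 and -3.03 after IRI in WT and -1.95 and -1.94 after IRI in KD. The change was 1.08 ± 0.41 in WT (adjusted p = 0.0668, or 0.0241 with the slide as a block) and 2.45 ± 0.41 in KD (adjusted p = 0.00193). Cxcl16, the other membrane-bound ligand, rose 2.06-fold in WT (1.04 ± 0.09, adjusted p = 0.000255) and 1.62-fold in KD (0.69 ± 0.09, adjusted p = 0.000565). Its levels were 1.67 and 1.80 in normal WT kidney and 1.95 and 1.85 in normal KD kidney, then 2.84 and 2.72 after IRI in WT and 2.54 and 2.65 after IRI in KD. Its receptor Cxcr6, found on T and NK cells, went the other way. Cxcr6 stood at -2.74 and -2.35 in normal WT kidney and -2.84 and -3.60 in normal KD kidney, then -4.21 and -4.94 after IRI in WT and -4.57 and -4.30 after IRI in KD. It fell by 2.03 ± 0.34 in WT (adjusted p = 0.00314) and by 1.22 ± 0.34 in KD (adjusted p = 0.0184). The KD call was lost without KD normal array 1 or either KD IRI array (-1.35 to -0.84, adjusted p 0.0515 to 0.0969).

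Cxcl14, an epithelial ligand, and Cxcl17, a mucosal one, both rose. Cxcl14 had levels of 1.77 and 1.85 in normal WT kidney and 1.29 and 1.70 in normal KD kidney, then 2.25 and 2.70 after IRI in WT and 2.62 and 2.75 after IRI in KD. It rose 1.58-fold in WT (0.66 ± 0.18, adjusted p = 0.0228) and 2.28-fold in KD (1.19 ± 0.18, adjusted p = 0.00126). The WT call was lost without WT normal array 1 or 2 or WT IRI array 2 (0.43 to 0.70, adjusted p 0.0759 to 0.106). Cxcl17 was below background at -6.22 and -6.86 in normal WT kidney and -6.78 and -5.61 in normal KD kidney, and lay at -3.07 and -2.77 after IRI in WT and -4.22 and -4.00 after IRI in KD. The rise was at least 4.37-fold in WT (adjusted p = 0.000715) and at least 2.54-fold in KD (adjusted p = 0.00447).

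The interferon-induced ligands Cxcl9 and Cxcl10, which share the T cell receptor Cxcr3, parted. Cxcl9 had levels of -2.04 and -2.08 in normal WT kidney and -2.60 and -4.32 in normal KD kidney, then -4.68 and -5.29 after IRI in WT and -5.34 and -5.46 after IRI in KD. It fell by 2.92 ± 0.51 in WT (7.58-fold, adjusted p = 0.00388) and by 1.94 ± 0.51 in KD (adjusted p = 0.0149). Without KD normal array 1 or 2 the KD change was -1.08 or -2.80, and without KD IRI array 1 or 2 the call was lost (-2.0 to -1.88, adjusted p 0.0550 to 0.0692). Cxcl10 stood at -0.73 and -0.71 in normal WT kidney and -1.13 and -1.45 in normal KD kidney, then 0.93 and -0.37 after IRI in WT and 1.05 and 0.80 after IRI in KD. The 2 WT IRI arrays were far apart, and the WT change of 1.0 ± 0.37 was not called (adjusted p = 0.0662, or 0.0364 with the slide as a block). In KD it rose by 2.21 ± 0.37 (4.63-fold, adjusted p = 0.00206). Cxcr3 had levels of -2.81 and -2.92 in normal WT kidney and -3.22 and -4.04 in normal KD kidney, then -4.14 and -5.41 after IRI in WT and -4.42 and -4.38 after IRI in KD. It fell by 1.91 ± 0.43 in WT (adjusted p = 0.0110), or -1.86 with an adjusted p of 0.0588 without WT normal array 1, and -2.55 or -1.27 without WT IRI array 1 or 2. In KD the change of -0.77 ± 0.43 was not called (adjusted p = 0.165).

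Cxcl12, the homeostatic ligand of Cxcr4 made by stroma and endothelium, fell. Its levels were 3.62 and 3.80 in normal WT kidney and 3.11 and 3.15 in normal KD kidney, then 2.85 and 2.77 after IRI in WT and 2.48 and 2.44 after IRI in KD, and the 4 groups did not overlap. It fell by 0.90 ± 0.08 in WT (adjusted p = 0.000329) and by 0.67 ± 0.08 in KD (adjusted p = 0.000469). A second Cxcl12 probe fell by 1.26 in WT and by 1.17 in KD (adjusted p = 0.00191 and 0.00152). Cxcr4 had levels of -4.35 and -4.29 in normal WT kidney and -3.48 and -4.15 in normal KD kidney, then -3.87 and -3.83 after IRI in WT and -3.14 and -3.19 after IRI in KD. It was not called in WT (0.47 ± 0.23, adjusted p = 0.138). In KD it rose by 0.65 ± 0.23 (adjusted p = 0.0443), a call that was lost without any 1 array except KD normal array 1 (0.31 to 0.67, adjusted p 0.0591 to 0.168).

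Of the ligands Ccl19, Ccl21a, Ccl25 and Ccl27a, which guide cells to lymph nodes, gut or skin, Ccl19 and Ccl27a fell. Ccl19, a ligand of Ccr7, had levels of 1.5 and 1.40 in normal WT kidney and 0.79 and 1.23 in normal KD kidney, then 0.72 and 1.01 after IRI in WT and 0.42 and 0.63 after IRI in KD. It fell by 0.58 ± 0.17 in WT (adjusted p = 0.0284) and by 0.49 ± 0.17 in KD (adjusted p = 0.0416). The WT call was lost without WT normal array 1 or 2 or WT IRI array 1 (-0.63 to -0.43, adjusted p 0.0841 to 0.131). The KD call was lost without either WT normal array, KD normal array 2 or either KD IRI array (-0.59 to -0.27, adjusted p 0.0662 to 0.200). Ccl27a, an epithelial ligand of Ccr10, stood at 0.73 and 0.75 in normal WT kidney and 0.48 and 0.40 in normal KD kidney, then 0.39 and 0.09 after IRI in WT and -0.14 and -0.18 after IRI in KD. It fell by 0.50 ± 0.11 in WT (adjusted p = 0.0103) and by 0.59 ± 0.11 in KD (adjusted p = 0.00328), and the WT call was lost without WT normal array 1 or 2 (-0.51 to -0.49, adjusted p 0.0565 to 0.0602). Ccl21a, the other Ccr7 ligand, and Ccl25, the ligand of Ccr9, were not called, with changes between -0.25 and 0.34. Ccl19, Ccl21a and Ccl27a have near-identical gene copies in the mouse genome, so their signal may be shared. Ccr7 was below background in both normal groups at -6.03 and -5.65 in WT and -6.92 and -6.11 in KD, and lay at -4.99 and -5.24 after IRI in WT and -4.94 and -5.07 after IRI in KD. It was not called in WT (adjusted p = 0.126) and was at least 1.37-fold higher in KD (adjusted p = 0.00758). Ccr9 had a change of -0.80 in WT that was not called (adjusted p = 0.0549) but was with the slide as a block (0.0366), the deposited table (0.0306), no intensity trend (0.0328) and genes above background on all 8 arrays (0.0359). The B cell ligand Cxcl13 was called in neither genotype.

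Ccl28, a mucosal ligand of Ccr10 and Ccr3, stood at -4.46 and -3.92 in normal WT kidney and at -2.98 and -1.0 in normal KD kidney. After IRI it was -5.53 and -4.87 in WT, and below background at -6.17 and -6.28 in KD. The WT change of -1.01 ± 0.60 was not called (adjusted p = 0.211). In KD it was at least 13.8-fold lower after injury (adjusted p = 0.000943). The fitted change was -5.22 or -3.24 without KD normal array 1 or 2, the 2 arrays of the group being far apart.

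The comparison of Keap1 knockdown with wild type asked whether these genes differed between genotypes, first without injury. Of the 40 members, 2 were higher and 1 lower in KD normal than in WT normal and 37 were not called, where 15.5% of all genes were called, 5.91% higher and 9.55% lower. Cxcl1 was higher by 2.49 ± 0.45 (5.62-fold, adjusted p = 0.0168), by 2.19 and 2.80 within the 2 slides. WT normal array 1 was below background for Cxcl1, so the 2.19 and the 5.62-fold rest partly on a signal that is only an upper bound. Ccl2 was higher by 0.84 ± 0.20 (1.78-fold, adjusted p = 0.0372), by 0.68 and 0.99 within slides. Cxcl12 was lower, with a difference of -0.58 ± 0.08 (adjusted p = 0.00915), with differences of -0.51 and -0.64 within slides, and its second probe was not called (-0.39, adjusted p = 0.195). The Cxcl1 call was lost without WT normal array 1 or 2 or KD normal array 2 (1.94 to 2.74, adjusted p 0.0601 to 0.104). The Ccl2 call was lost without either WT normal array, KD normal array 2 or either KD IRI array (0.62 to 0.90, adjusted p 0.0623 to 0.179). The Cxcl12 call was lost without WT normal array 2 (-0.49, adjusted p = 0.0761). Ccl28 was higher by 2.20 ± 0.60 but was not called (adjusted p = 0.0520, or 0.0303 with the slide as a block and 0.0476 with quantile normalization). Normexp correction without non-uniform spots ended the Cxcl1 and Ccl2 calls, and the Ccl2 call was also lost with no filter on dim probes, with no intensity trend and with only the arrays compared. The median of the members was -0.28, against -0.04 for all genes. It was 0.64 with normexp correction (0.13 for all genes), -0.02 with non-uniform spots left out as well and -0.05 with quantile normalization. On KD normal array 2 the summed level of 14 neutrophil markers (linear, in units of the 75th percentile) was 6.55, against 0.889 on KD normal array 1 and 0.441 and 0.595 on the WT normal arrays. By the probe used, Cxcr2 was above background on that array alone among the normal arrays. Its fitted difference between the normal groups was 0.91 and was not called (adjusted p = 0.381 in a limma fit of single probes). The second Cxcr2 probe, above background on 4 arrays in all, did not share this difference (-0.04, adjusted p = 0.934). The part of neutrophils in the Cxcl1 and Ccl2 differences was not tested.

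**Figure D3:**
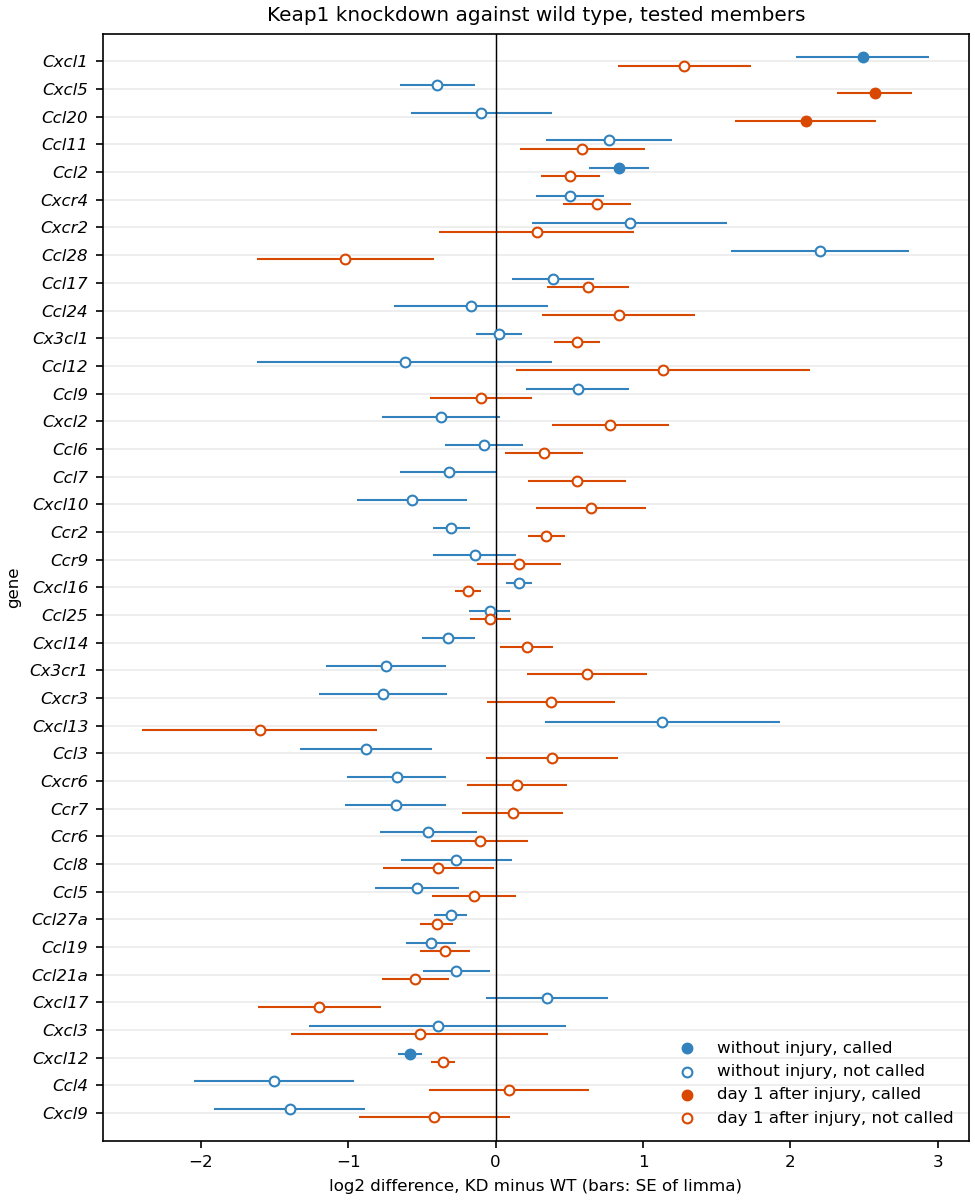
Log2 difference of Keap1 knockdown from wild type (x axis) for tested members (y axis), without injury and at day 1 after it, with limma's SE as bars; filled points were called at an adjusted p under 0.05. Cxcl1, Ccl2 and Cxcl12 are filled without injury, and Cxcl5 and Ccl20 are filled after it.

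After injury 2 of the 40 members were higher in KD than in WT, 0 were lower and 38 were not called, where 7.20% of all genes were called, 3.70% higher and 3.49% lower. At an unadjusted limma p under 0.05, 7 members were higher and 4 lower. The share of all genes under that threshold was not counted, so no excess of members can be read from these numbers. Cxcl5 was higher by 2.57 ± 0.25 (5.95-fold, adjusted p = 0.00766), by 2.68 and 2.47 within slides, and was above background on all 4 injured arrays. Ccl20 was higher by 2.10 ± 0.48 (4.30-fold, adjusted p = 0.0476), by 1.32 and 2.89 within slides. The Cxcl5 call was lost without KD IRI array 2 (2.56, adjusted p = 0.0775). The Ccl20 call was lost without either WT normal array, WT IRI array 2 or either KD IRI array (1.38 to 2.17, adjusted p 0.0741 to 0.235), and without WT IRI array 1 the difference was 2.83. Normexp correction ended both calls, and the Ccl20 call was also lost with the deposited table, no filter on dim probes, no intensity trend and only the arrays compared. Cxcl12 was not called after injury (-0.35 ± 0.08, adjusted p = 0.0503). It was called lower with quantile normalization (0.0456), with normexp correction without non-uniform spots (0.0455) and with genes above background on all 8 arrays (0.0469). Cxcl1 (1.28 ± 0.45, adjusted p = 0.129), Cxcl17 (-1.20 ± 0.42, adjusted p = 0.126) and Cx3cl1 (0.55 ± 0.16, adjusted p = 0.0776) were not called either. Normexp correction did call Cxcl1 higher (1.17, limma adjusted p = 0.00514). With non-uniform spots left out as well, Cxcl17 was called lower (-0.69, limma adjusted p = 0.0226). Without WT IRI array 1 the Cx3cl1 difference was 0.80. The summed neutrophil markers were 51.6 and 113 after IRI in WT and 55.5 and 62.3 after IRI in KD, and the groups overlapped.

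**Figure D4:**
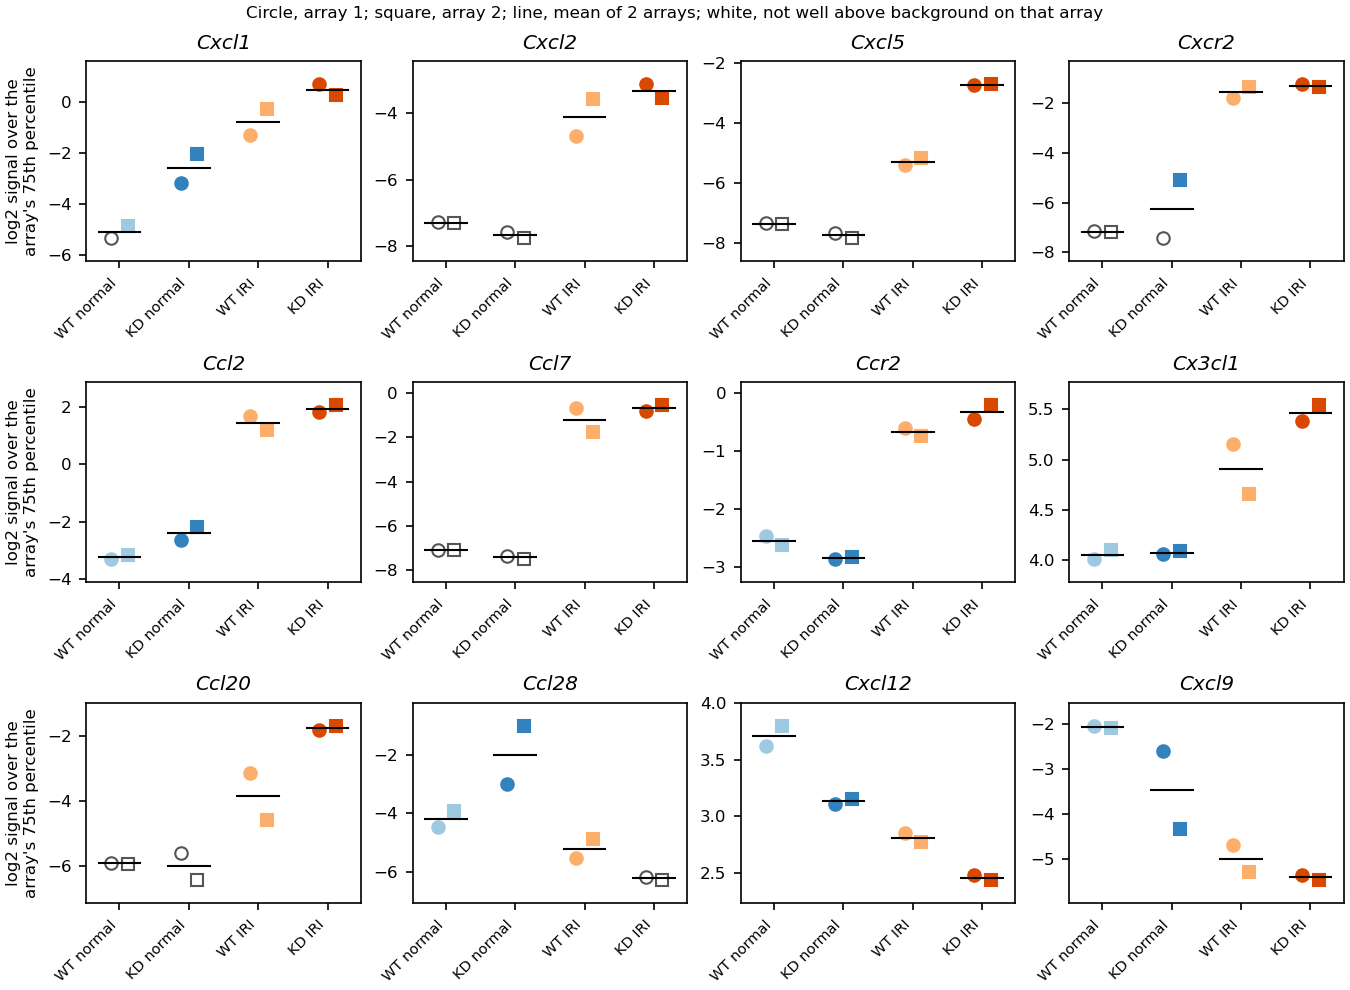
Level on each array (log2 signal, 75th percentile of each array at 0, y axis) of 12 members in the 4 groups (x axis); circles are array 1, squares array 2, lines group means, and white symbols were not well above background on that array. Cxcl5 lies at -5.42 and -5.18 in WT IRI and at -2.74 and -2.71 in KD IRI, and the KD normal arrays of Ccl28 lie apart at -2.98 and -1.0.

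Whether injury changed a member differently in the 2 genotypes was tested as an interaction. Of the 40 members 1 was called, where 6.57% of all genes were. This was Cxcl5, whose response was 2.97 ± 0.36 larger in KD on the log2 scale (adjusted p = 0.0163), 3.0 and 2.94 within slides. Its 4 normal arrays were below background, so this size rests on signals that are only bounds. The call was lost without either WT normal or either KD IRI array (2.95 to 2.99, adjusted p 0.0516 to 0.0889), and with normexp correction the sign turned (-0.73). For the 7 members called higher in KD and not called in WT, the interaction was not called, with adjusted p of 0.480 for Ccl12, 0.242 for Ccl4, 0.592 for Ccl5, 0.345 for Ccr7, 0.192 for Cx3cr1, 0.202 for Cxcl10 and 0.768 for Cxcr4. For Ccl28 the interaction was -3.22 ± 0.85 (adjusted p = 0.0730), and with the slide as a block its adjusted p was 0.0450. For Cxcr3, called in WT alone, it was 1.14 ± 0.61 (adjusted p = 0.288).

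Genes around the chemokine system were counted from lists, against a median change of -0.08 in WT and -0.06 in KD for all genes tested. Of all genes 20.6% were called higher after injury in WT and 28.1% in KD, and 25.5% and 31.0% lower. Genes high after injury could pass the filter through that group. Of 18 tested genes of NF-kB signalling and cytokine induction, 13 rose after injury in WT and 13 in KD, and the medians were 1.38 and 1.42. The inflammatory cytokine gene Il1b rose by 3.40 and 3.78 on the log2 scale. Il6 was at least 3.83-fold higher after injury in KD (adjusted p = 0.000722). Of 12 leukocyte adhesion genes 10 rose in WT and 12 in KD, with medians of 0.98 and 1.11. Itgam, the myeloid integrin that is also on the macrophage list, rose by 3.39 in KD (adjusted p = 0.000504). Of 15 genes of receptor signalling and migration, 11 rose and 1 fell in WT, and 10 rose in KD, with medians of 0.77 and 0.83. Rgs16, a regulator of G protein signalling, rose by 2.85 and 3.41. Among 6 atypical and other chemoattractant receptors, 3 rose and 2 fell in WT and 2 rose and 1 fell in KD. The medians were 0.47 and 0.16. The formyl peptide receptor gene Fpr2 was at least 9.59-fold higher in WT and at least 9.73-fold in KD (adjusted p = 0.00107 and 0.00163), and Cmklr1, the chemerin receptor, fell by 1.51 in KD. Of 9 chemokines under other symbols and related genes, 5 rose and 2 fell in each genotype, with medians of 1.03 and 1.74. Pf4, the platelet ligand, rose by 4.11 and 4.23, and Cd74 fell by 0.75 and by 0.86. Of the 4 platelet markers tested, Pf4 and Ppbp rose while Gp1ba and Itga2b fell in both genotypes. Of 8 NRF2 targets 7 were higher in KD than in WT both without injury and after it, with Nqo1 higher by 1.32 and 2.05. Of all genes 5.91% were called higher without injury and 3.70% after it.

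Markers of leukocytes moved with injury beside the chemokine receptors. Over all tested genes 20.6% were called higher after injury in WT and 28.1% in KD, and 25.5% and 31.0% lower. Of 11 tested neutrophil markers 9 rose in both genotypes. Of these, Mmp9, Csf3r and Trem1 were below background in both normal groups, as was the macrophage marker Arg1. These passed the filter only through injured groups, so their rise was partly set by it. In WT normal, S100a8, Mmp8, Retnlg and Il1r2 were also below background on both arrays, as was the macrophage marker Itgam. In KD normal the same was so of Stfa2l1. The sum of neutrophil markers over 14 probed genes was 0.441 to 0.595 in normal WT kidney and 0.889 to 6.55 in normal KD kidney. After IRI it was 51.6 to 113 in WT and 55.5 to 62.3 in KD. The neutrophil granule marker Elane was below background in every group, and Camp in every group but WT IRI. Of 17 monocyte and macrophage markers 13 rose in each genotype, with Ly6c2 called in WT and not in KD and Aif1 called in KD and not in WT, and Csf1r fell in both. The sum over 17 genes was 70.7 to 75.5, 77.9 to 79.5, 107.4 to 135 and 103 to 123 in the same order of groups. Of 11 lymphocyte markers 4 fell in WT, and 3 rose and 3 fell in KD. In KD normal 3 were lower than in WT normal, where 9.55% of all genes were. Their sum over 15 genes was 1.13 to 1.17, 0.567 to 0.748, 0.601 to 0.804 and 0.652 to 0.774. Of 11 tubule markers 8 fell and 2 rose in WT, and 9 fell and 2 rose in KD, so that the sum went from 848 to 864 in WT normal to 465 to 514 in WT IRI. Of 7 fibroblast and stroma markers 5 rose in both genotypes. Their sum was 18.9 to 19.4, 19.4 to 26.2, 65.7 to 77.7 and 82.9 to 105 in that order of groups. Of 8 endothelium markers 2 rose and 1 fell in WT, and 3 rose and 2 fell in KD. The endothelium sum was 55.4 to 57.6, 51.6 to 56.5, 58.8 to 68.8 and 49.1 to 54.7 in that order. Of 3 red cell markers tested, 3 fell in WT and 2 in KD. The part of these shifts in the rise of Cxcr2 and Ccr2 and in the fall of Cxcl12, Cxcr3, Cxcr6 and Cxcl9 was not tested.

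Of the members, 13 had more than 1 probe. The second Cxcl16 probe rose by 0.67 in WT and 0.35 in KD and the second Ccl19 probe fell by 1.19 and by 0.74, and both were above background on all 8 arrays. The second probes of Ccl7 and Cxcr2 were above background on 4 arrays, that of Ccl24 on 3 and that of Ccr2 on 5. No size of the injury change is therefore given for them. Each of these 6 probes was called in both genotypes in the direction of the probe used, with adjusted p up to 0.0444. The second Cxcr4 probe, above background on 6 arrays, was not called in WT (adjusted p = 0.427) and was called higher in KD (adjusted p = 0.0414).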

How the data were processed

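Total RNA of male mouse kidney was hybridised to 8 single-colour (Cy3) Agilent arrays, 2 per group. Spot intensities were background-subtracted and detrended by the authors with Feature Extraction 10.7.3.1, per the file headers, and have no scaling between arrays. The authors' deposited log2 table tracks the scanner values of each array (r at least 0.9999) with column medians of 0.160, 0.125, 0.0952, 0.0564, -0.0746, -0.0822, -0.136 and -0.117, and was used as an alternative. Its centring on each probe and its scaling were inferred from the values and are not stated. Here log2 processed signal minus the array's 75th percentile was used. Of 41174 probes, 27404 were well above background on both arrays of a group, and the brightest probe of each gene gave 20577 genes, of which 14102 had a symbol. limma 3.58.1 (R 4.3.3) was fitted to the 4 groups (lmFit, then eBayes with an intensity trend, 4 residual degrees of freedom) with Benjamini-Hochberg adjustment and a threshold of 0.05, and was tested on simulated data. Symbols and promoter sequences are RefSeq's. Every member was described, members called in any comparison got the value of each array, and other genes were named as those with the largest rise, fall or uncalled change of a list. The members and lists were chosen with earlier results of these data known. Alternatives were quantile normalization, normexp correction (offset 50, from median signals), the deposited table, other filters, the mean of a gene's probes, no trend, separate fits, the slide as a block and each array left out. The number of arrays limits the precision. A few genes are not reported here.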

Additional observations from a re-analysis of the deposited data

Results flagged for a closer look

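Cxcl5 was the member whose response to injury differed between the genotypes by limma's interaction test. The response was 2.97 ± 0.36 (SE) larger on the log2 scale in KD than in WT (adjusted p = 0.0163), and 3.0 and 2.94 within the 2 slides. All 4 normal arrays were below background and all 4 injured arrays above it.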

How the results depend on the processing

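With normexp correction 18 members were called for injury in KD, 5 for genotype without injury, 1 for genotype after injury and 0 in the interaction, against 32, 3, 2 and 1. Under it Ccr7 (-0.63), Cxcl17 (-0.52), Cxcl3 (-0.42) and Cxcr4 (-0.28) reversed for injury in KD, as did the Cxcl5 interaction (-0.73); the cause was not tested. Without non-uniform spots, a choice made after seeing the data, it called 1 member for genotype without injury and 5 after injury. For genotype after injury 1 member was called with the deposited table, no filter on dim probes, no intensity trend, and only the arrays compared. With genes above background on all 8 arrays, which tests fewer genes, 16 members were called for injury in WT, 19 in KD, 1 for genotype after injury and 0 in the interaction. With the replicate block the interaction called 2 members, and injury 28 in WT and 32 in KD; same-numbered arrays correlated between 0.0213 and 0.262, so the numbers are not shown to pair samples. With single arrays left out, 0 to 7 members were called for genotype without injury, 0 to 5 after injury and 0 to 7 in the interaction. Over all genes, normexp called 5253 for injury in WT and 6955 in KD (9487 and 12171 in the report's setting), and no filter took the share higher among the called from 44.6% to 28.78% in WT and from 47.56% to 35.48% in KD. Dim signals limit the folds of members below background in normal kidney.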
